A study of Mus musculus with 4 samples.

Results

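Genes of fatty acid oxidation and ketone body metabolism were followed across the colon arrays of Pla2g3+/+ and Pla2g3-/- mice. They were taken by gene name from a fixed list, 30 genes of 22371 on the array, carried by 44 of 39429 probes. All 30 were found, and all 30 were well above background on all 4 arrays. The list held enzymes of the carnitine shuttle, of the mitochondrial and peroxisomal oxidation of fatty acids and of ketone bodies, together with 3 regulators.

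Fatty acids enter mitochondria as carnitine esters and are shortened by a repeating cycle of dehydrogenation, hydration, a further dehydrogenation and thiolysis. The electrons pass through electron transfer flavoprotein to the respiratory chain, and the acetyl-CoA is burned or made into ketone bodies. Colonocytes, the absorptive cells of the colon surface, are known to use short-chain fatty acids such as butyrate as a main fuel.

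The study compared the colon of mice lacking Pla2g3, the gene of the secreted phospholipase sPLA2-III, with that of wild-type mice in a model of colon carcinogenesis. There were 4 groups with 1 array each, namely Pla2g3+/+ with vehicle, Pla2g3-/- with vehicle, Pla2g3+/+ with azoxymethane (AOM) and Pla2g3-/- with AOM. AOM, a carcinogen that alkylates DNA in the colon, was injected intraperitoneally in 6 weekly doses of 10 mg/kg, and the colon was taken 28 weeks after the last of them. Vehicle was saline. All mice were males of the B6.129 (n3) background, 42 weeks old, and each array held 27.7 ng of RNA pooled from 3 to 5 mice according to the labels. The labels call the AOM tissue colorectal cancer, whereas the study describes whole descending colon. With 1 pool per group the spread between mice was not measured, a single comparison carries no p-value, and the number of arrays limits the precision.

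Signals are given here as levels, the intensity of a gene's brightest probe relative to the upper quartile (75th percentile) of all spots on the array, so that a level of 1 equals that percentile. Levels of different genes come from different probes, so levels, and their sums over a list, were compared only between arrays. Ratios are KO/WT, the Pla2g3-/- pool over the Pla2g3+/+ pool, or AOM/vehicle, and 2-fold was the threshold. Between 64.8% and 69.4% of spots were well above background, and the 75th percentile was 647.4 and 652 with vehicle against 1312 and 1171 after AOM. Repeat spots of bright probes had a median SD of 0.05 to 0.06 log2 within an array, which covers the array's own error alone. Pla2g3, the targeted gene, went against the genotype labels. Its brightest probe read 343 and 426 with vehicle and 304 and 1632 after AOM, Pla2g3+/+ first, which was 1.23-fold and 6.01-fold higher in the arrays labeled Pla2g3-/-. The position of the probes relative to the deleted part was not given in the sources used here, so the genotypes below are those of the labels, and whether labels were exchanged was not tested. Fewer cells of a type and less RNA per cell cannot be told apart in these whole-tissue pools.

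The wild-type pool after AOM stood low for most of these genes. Of the 30 members, 27 had their lowest level in the Pla2g3+/+ pool given AOM, against 38.1% of the 14788 genes well above background on all arrays. This number was 25 with quantile normalization, and 15 without scaling, where 14.2% of those genes were lowest there. Their levels summed to 264.6 and 304 with vehicle and to 117 and 207 after AOM, Pla2g3+/+ first. The highest level fell in the Pla2g3-/- pool with vehicle for 16 members (20.7% of those genes), in the Pla2g3-/- pool with AOM for 9 (25.7%), in the Pla2g3+/+ pool with vehicle for 3 (24.8%) and in the Pla2g3+/+ pool with AOM for 2 (28.9%). The exceptions at the low end were Eci1 and Acot1, lowest in the Pla2g3-/- pool with AOM, and Hsd17b4, lowest in the Pla2g3+/+ pool with vehicle.

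**Figure D1:**
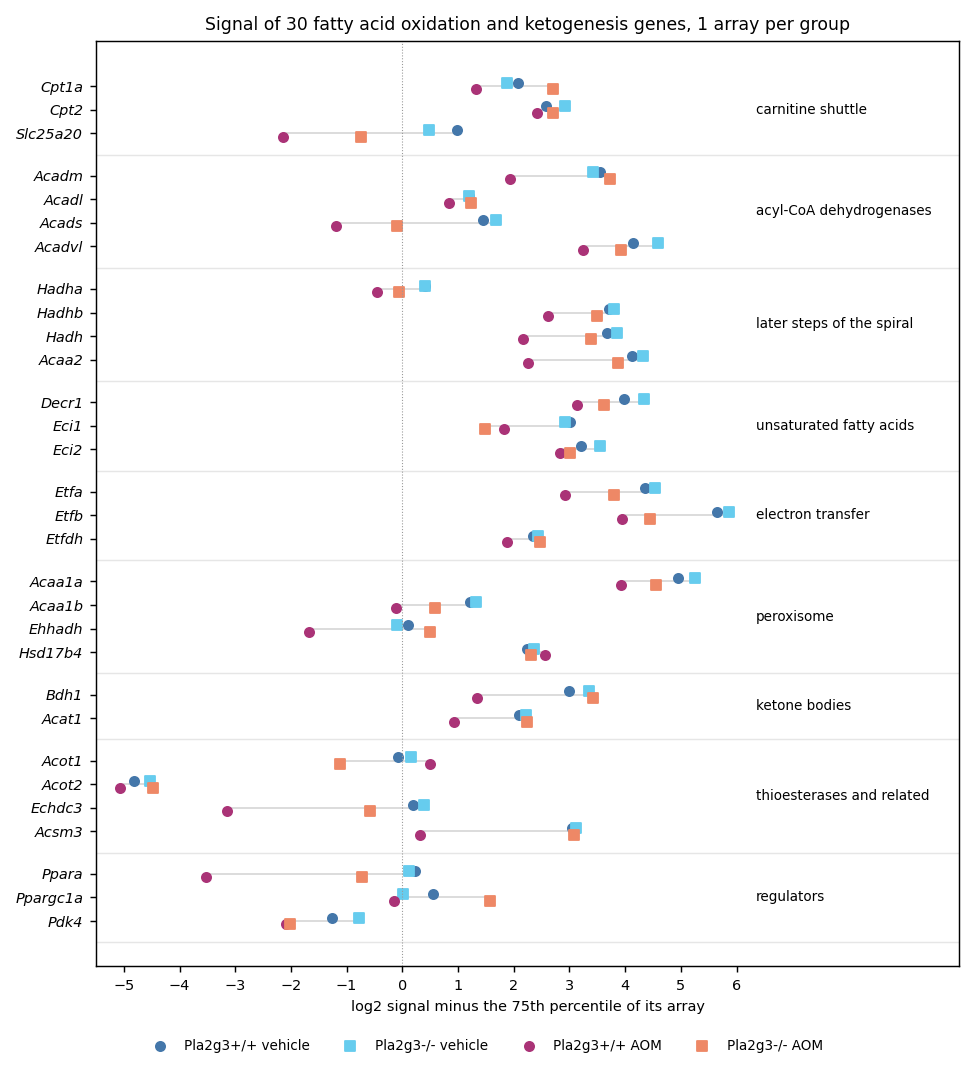
Each row is 1 of the 30 genes, sorted by role, and the horizontal axis is the log2 signal minus the 75th percentile of its array. Circles are Pla2g3+/+ and squares Pla2g3-/- pools, AOM pools are drawn just below vehicle pools, and for 27 genes the Pla2g3+/+ AOM circle lies furthest left (15 without scaling).

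Without AOM, the genotypes differed little. No member was over 2-fold higher, where 1.93% of 16396 genes were, and none was over 2-fold lower, where 1.32% were. The KO/WT log2 ratio was above 0 for 22 members and below 0 for 8, with a median of 0.16 against -0.02 over all genes. It ranged from -0.55 for Ppargc1a to 0.49 for Pdk4.

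After AOM, 13 members were over 2-fold higher in the Pla2g3-/- pool, where 15.1% of 17195 genes were, and 1 member, Acot1, was over 2-fold lower, where 12.9% were. The median log2 ratio was 0.79 against 0.03 over all genes, and 27 members lay above 0. Within the Pla2g3+/+ pools, 17 members were over 2-fold lower after AOM than with vehicle, where 22.4% of 17275 genes were, and none was over 2-fold higher, where 15.1% were. The median there was -1.13 against -0.17 over all genes. Within the Pla2g3-/- pools, 6 members were over 2-fold lower, where 15% of 16518 genes were, 1 was over 2-fold higher, where 9.67% were, and the median was -0.47 against -0.08. The comparison of the AOM pools and that within Pla2g3+/+ share the Pla2g3+/+ AOM array, so that a low reading there enters both. The comparisons within each genotype share no array.

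The share of members past 2-fold thus stood above the background in the wild-type AOM comparison and in KO/WT after AOM, and near it within Pla2g3-/-. Counts after AOM depended on the scaling. Of all genes past 2-fold within Pla2g3+/+, 40.3% were higher with the 75th percentile, 51.4% after normexp and quantile normalization and 86.3% without scaling, and within Pla2g3-/- these shares were 39.2%, 51.2% and 91.1%. The number of members lower within Pla2g3+/+ was 11 with quantile normalization, where 17.7% of all genes were, and 5 without scaling, where 7.17% were. Hadhb, Acaa1a, Etfa, Etfb, Eci1 and Acat1 were the 6 that were within 2-fold under the former. Within Pla2g3-/- the members' median turned to 0.38 without scaling, where the median of all genes was 0.76. The members' median lay 0.96 log2 below that of all genes within Pla2g3+/+, and 0.86 and 0.98 below it under these settings.

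**Figure D2:**
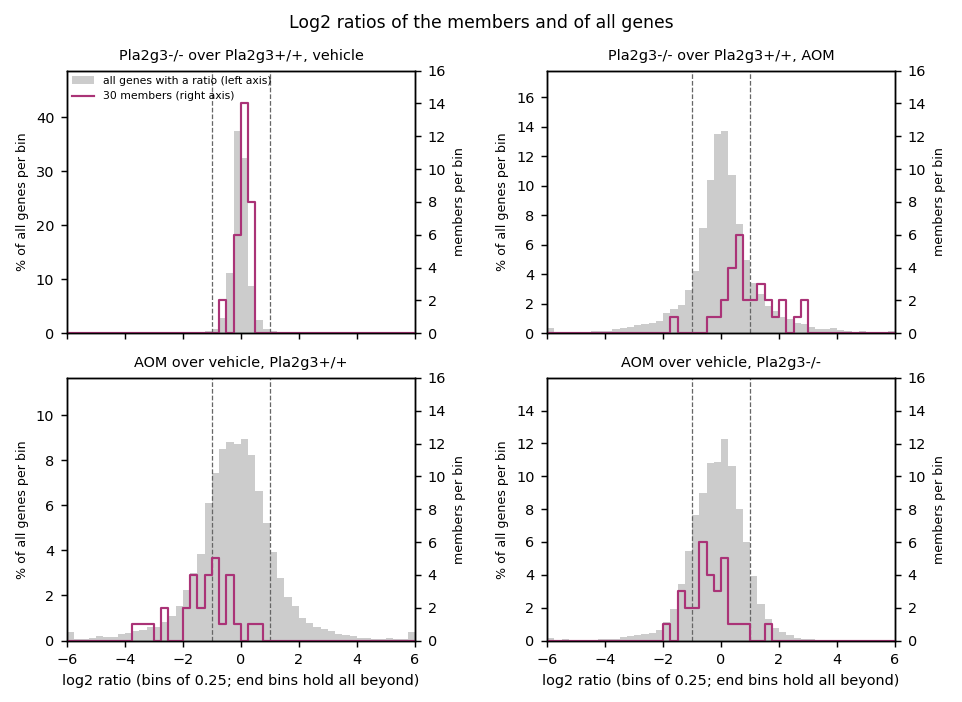
Grey bars give the share of all genes per bin of 0.25 log2 (left axis) and the line the number of the 30 members (right axis), with dashed lines at 2-fold. The members center near the bulk in KO/WT with vehicle (median 0.16), lie to its right in KO/WT after AOM (0.79) and to its left for AOM/vehicle in Pla2g3+/+ (-1.13).

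The carnitine shuttle moves long-chain acyl groups across the mitochondrial membranes. Cpt1a, the outer membrane transferase that limits the rate of entry, had levels of 4.24 and 3.69 with vehicle and 2.49 and 6.54 after AOM, Pla2g3+/+ first. Its 10 repeat spots gave a KO/WT log2 ratio of 1.39 ± 0.01 (SE of the spots) after AOM, and a weaker probe of the gene gave 1.31. Cpt1a was thus highest in the Pla2g3-/- AOM pool and lowest in the Pla2g3+/+ AOM pool, on either side of both vehicle pools. The low place of the Pla2g3+/+ AOM pool rests on the scaling. Unscaled, the signals of Cpt1a were 2745 and 2408 with vehicle and 3273 and 7660.5 after AOM. Slc25a20, the carnitine-acylcarnitine carrier of the inner membrane, had levels of 1.98 and 1.40 with vehicle and 0.228 and 0.594 after AOM. This carrier was 8.71-fold lower after AOM in Pla2g3+/+ and 2.35-fold lower in Pla2g3-/-, so both AOM pools lay below both vehicle pools. Cpt2, which returns the acyl group to CoA on the inner side, stayed between 5.37 and 7.58 on the 4 arrays.

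The acyl-CoA dehydrogenases open each turn of the cycle and are named for the chain length they take. The medium-chain enzyme Acadm had levels of 11.6 and 10.7 with vehicle and 3.81 and 13.2 after AOM, so that only the Pla2g3+/+ AOM pool was low. The short-chain enzyme Acads had levels of 2.73 and 3.19 with vehicle and 0.439 and 0.931 after AOM. Acads was 6.23-fold lower after AOM in Pla2g3+/+ and 3.43-fold lower in Pla2g3-/-, the largest decrease of any member in the latter, and 2.12-fold higher in KO/WT after AOM. The last of these was under 2-fold without scaling and after normexp and quantile normalization. The long-chain Acadl and very-long-chain Acadvl were within 2-fold in every comparison, at 1.79 to 2.35 and 9.45 to 24.

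The later steps of the mitochondrial cycle were carried by Hadha and Hadhb, the subunits of the trifunctional protein for long chains, by Hadh, which oxidizes shorter hydroxyacyl-CoAs, and by the thiolase Acaa2. Acaa2 had levels of 17.3 and 20 with vehicle and 4.80 and 14.5 after AOM. Its 10 repeat spots gave an AOM/vehicle log2 ratio of -1.85 ± 0.02 (SE of the spots) in Pla2g3+/+ and -0.46 ± 0.02 in Pla2g3-/-. Hadh read 12.8 and 14.4 with vehicle and 4.47 and 10.5 after AOM. Both genes were lowest by far in the Pla2g3+/+ AOM pool, and both were over 2-fold higher in KO/WT after AOM, by 3.03-fold for Acaa2 and 2.35-fold for Hadh. Hadhb read 13.1 and 13.8 with vehicle and 6.11 and 11.3 after AOM, 2.15-fold lower in Pla2g3+/+, while its partner Hadha was within 2-fold at 0.726 to 1.33.

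Double bonds are handled by the reductase Decr1 and the isomerases Eci1 and Eci2. Eci1 had levels of 8.10 and 7.59 with vehicle and 3.55 and 2.81 after AOM, over 2-fold lower in both genotypes, and KO/WT after AOM was -0.33 on the log2 scale. Decr1 stood at 8.80 to 20.3 and Eci2 at 7.10 to 11.8, both within 2-fold throughout. A weaker probe of Decr1 gave an AOM/vehicle log2 ratio of -1.25 in Pla2g3+/+, where the brightest gave -0.84.

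Electron transfer flavoprotein takes the electrons of the dehydrogenases. Its beta subunit Etfb had levels of 50.3 and 58.1 with vehicle and 15.4 and 21.9 after AOM, 3.26-fold and 2.65-fold lower in Pla2g3+/+ and Pla2g3-/-. Its alpha subunit Etfa read 20.5 and 23.1 with vehicle and 7.60 and 13.9 after AOM, 2.70-fold lower in Pla2g3+/+ and 1.66-fold lower in Pla2g3-/-. All 3 probes of Etfb gave AOM/vehicle log2 ratios between -2.01 and -1.70 in Pla2g3+/+, and between -1.53 and -1.41 in Pla2g3-/-. Etfdh, the dehydrogenase that passes the electrons on to ubiquinone, was within 2-fold at 3.67 to 5.52.

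Peroxisomes shorten very long and branched chains by the same chemistry. Ehhadh, a bifunctional hydratase and dehydrogenase, had levels of 1.07 and 0.937 with vehicle and 0.314 and 1.41 after AOM. Ehhadh was 3.42-fold lower after AOM in Pla2g3+/+ and 4.51-fold higher in KO/WT after AOM, with the lowest and the highest level in the pools given AOM. Hsd17b4, the other bifunctional enzyme, differed least among the members, with levels from 4.73 to 5.89. The thiolases Acaa1a and Acaa1b were 2.02-fold and 2.53-fold lower after AOM in Pla2g3+/+, and within 2-fold elsewhere. Their levels were 30.7 and 38.1 with vehicle and 15.2 and 23.4 after AOM for Acaa1a, and 2.33, 2.49, 0.924 and 1.5 in the same order for Acaa1b.

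Acaa1a and Acaa1b are closely related genes, as are the thioesterases Acot1 and Acot2, so the values of these 4 genes are uncertain where the probe of 1 copy can bind the transcript of the other, which was not tested. Each probe was 60 bases long, and the longest run of bases shared by the probes of a pair was 6. The opening 30 bases of each probe are shown to identify what was measured.
Acaa1a: ccctggttgcaaagccatttgtacctttga
Acaa1b: tctgcgtgggacactcagcagtggaggagt
Acot1: tctatggaaactggagctatccaagaaaag
Acot2: ggggaaacctcatatatattatcacaatgt

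Acot1 and Acot2 release free fatty acids from acyl-CoA in the cytosol and in mitochondria. Acot1 went the other way from most members, with levels of 0.947 and 1.11 with vehicle and 1.42 and 0.462 after AOM. Acot1 was 3.07-fold lower in KO/WT after AOM, highest in the Pla2g3+/+ AOM pool and lowest in the Pla2g3-/- AOM pool. Acot2 was dim, at 0.0297 to 0.0447, and within 2-fold throughout. Acsm3, a mitochondrial synthetase that activates medium-chain fatty acids, had levels of 8.28 and 8.67 with vehicle and 1.25 and 8.50 after AOM. The Pla2g3+/+ AOM pool stood apart from the other three, where KO/WT with vehicle was 0.07 and AOM/vehicle in Pla2g3-/- was -0.03 on the log2 scale. All 3 probes of Acsm3 gave KO/WT log2 ratios after AOM between 2.77 and 3.20. Echdc3, a mitochondrial protein of the hydratase family, read 1.14 and 1.31 with vehicle and 0.113 and 0.668 after AOM, 10.1-fold lower in Pla2g3+/+. A dim probe of another Echdc3 transcript gave -0.17 log2 there, so this change was not shared by both probes.

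Ketone body enzymes among the members were Bdh1, which interconverts acetoacetate and 3-hydroxybutyrate, and the mitochondrial thiolase Acat1. Bdh1 had levels of 8 and 10.1 with vehicle and 2.52 and 10.7 after AOM, 4.26-fold higher in KO/WT after AOM. All 3 of its probes gave log2 ratios between 1.94 and 2.36 in that comparison, and between -1.85 and -1.67 for AOM/vehicle in Pla2g3+/+. Acat1 read 4.24 and 4.67 with vehicle and 1.90 and 4.74 after AOM. Both ketone body members were thus low in the Pla2g3+/+ AOM pool, and AOM/vehicle in Pla2g3-/- was 0.08 for Bdh1 and 0.02 for Acat1 on the log2 scale. Of the 9 other genes of ketogenesis and ketone use, 5 were over 2-fold lower and none over 2-fold higher after AOM in Pla2g3+/+, and 3 were higher and none lower in KO/WT after AOM. Of all genes, 22.4% were lower and 15.1% higher in the former comparison, and 15.1% were higher and 12.9% lower in the latter. Oxct1, which starts ketone use and was named after its values were seen, read 15.8 and 16.3 with vehicle and 6.93 and 17.6 after AOM.

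The regulators held the member with the largest ratio within Pla2g3+/+ and in KO/WT after AOM. Ppara, the nuclear receptor that induces many of these enzymes when fatty acids bind it, had levels of 1.16 and 1.08 with vehicle and 0.0871 and 0.606 after AOM. By its brightest probe, Ppara was 13.4-fold lower after AOM in Pla2g3+/+, the largest change among the members' brightest probes, and 6.96-fold higher in KO/WT after AOM. Its probes differed in size, since the KO/WT log2 ratio after AOM was 2.80 for the brightest, at least 3.82 for a probe not well above background in the Pla2g3+/+ AOM pool, and 0.70 for another. For AOM/vehicle in Pla2g3+/+ the log2 ratios of these probes, in the same order, were -3.74, -3.98 or lower, and -1.24. Ppargc1a, the coactivator of mitochondrial genes, had levels of 1.47 and 1.01 with vehicle and 0.902 and 2.97 after AOM. Ppargc1a was the one member over 2-fold higher after AOM in Pla2g3-/-, by 2.95-fold, and 3.29-fold higher in KO/WT, and its other probe gave log2 ratios of 1.71 and 1.73. Pdk4, the kinase that holds back pyruvate dehydrogenase, read 0.416 and 0.584 with vehicle and 0.236 and 0.247 after AOM, with both AOM pools below both vehicle pools. That order rests on the scaling too, since its unscaled signals were 269.5 and 381 with vehicle and 310 and 289.5 after AOM.

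**Figure D3:**
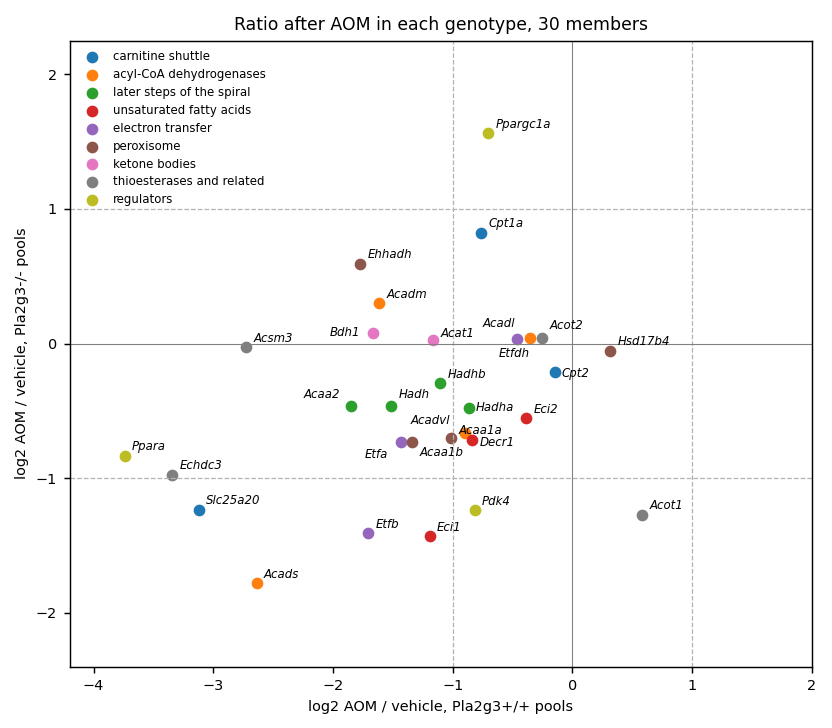
Each point is 1 member colored by role, with the log2 AOM/vehicle ratio of the Pla2g3+/+ pools on the horizontal and of the Pla2g3-/- pools on the vertical axis, and dashed lines at 2-fold. Ppara (-3.74 and -0.83), Echdc3 (-3.34 and -0.97) and Acsm3 (-2.73 and -0.03) lie far left near the middle height, Acads (-2.64 and -1.78) is low on both axes, and Ppargc1a (-0.70 and 1.56) is highest.

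The ratio after AOM was compared between the genotypes directly. The log2 AOM/vehicle ratio was over 1 unit larger in Pla2g3-/- than in Pla2g3+/+ for 12 members, where 16.2% of 16111 genes were, and over 1 unit smaller for 1, Acot1, where 12.9% were. The median of this difference was 0.65 over the members and 0.08 over all genes. Both ratios were below 0 for 19 members (63.3%, against 39.8% of all genes). The ratio was negative in Pla2g3+/+ and positive in Pla2g3-/- for 9 members (30%, against 17%), and the reverse held for Acot1 and Hsd17b4 (6.67%, against 14%). Across the 30 members, Pearson's r of the ratios in the 2 genotypes was 0.28 and Spearman's rho 0.28, against 0.41 and 0.45 across 16111 genes. These are descriptions across genes that share the same 4 arrays. A fit of treatment and genotype to all 4 arrays in limma, with 1 residual degree of freedom, called 0% of 17876 genes for treatment and 0% for genotype at an adjusted p of 0.05. At an unadjusted p under 0.05 it gave 2407 genes for treatment and 215 for genotype. The 4 members Acads, Etfb, Eci1 and Slc25a20, all over 2-fold lower after AOM in both genotypes, were among the former, with limma's adjusted p of 0.368, and no member was among the latter. For treatment, these 4 of 30 members were a share near that of all genes. The number of members was 11 with an intensity trend in limma, where 3044 of 17876 genes were, and 2 with quantile normalization, where 2093 were.

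The wider pathway was taken from 116 other genes in 8 lists. Of those with a ratio, 42 of 110 were over 2-fold lower and 7 higher after AOM in Pla2g3+/+, where 22.4% and 15.1% of all genes were. In KO/WT after AOM 30 of 109 were higher and 8 lower, against 15.1% and 12.9% of all genes. After AOM in Pla2g3-/-, 18 of 109 were lower, a share near the 15% of all genes, and 6 higher, against 9.67%. With vehicle, where 1.93% of all genes were over 2-fold higher in KO/WT and 1.32% lower, 1 of 108 was higher and 1 lower. These were Fabp1, the liver-type fatty acid binding protein, 3.63-fold higher, and Amacr, the racemase for branched chains, 0.493 of wild type. The medians were -0.74 within Pla2g3+/+ and 0.56 in KO/WT after AOM, between those of the members and of all genes. In the list of 19 other mitochondrial genes, 4 were over 2-fold lower within Pla2g3+/+ and 2 higher in KO/WT after AOM, with medians of -0.68 and 0.72. These 2 counts were no larger shares than those of all genes.

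Of the lists, regulators of fatty acid oxidation had 11 of 18 genes over 2-fold higher in KO/WT after AOM and none lower. Of all genes, 15.1% were higher and 12.9% lower there. Esrrg, an estrogen-related receptor, was at least 13.1-fold higher there, since it was not well above background in the Pla2g3+/+ AOM pool. Within Pla2g3+/+, 10 of these 18 were over 2-fold lower after AOM and 1 higher, whereas within Pla2g3-/- there was 1 in each direction. The shares of all genes were 22.4% lower and 15.1% higher within Pla2g3+/+, and 15% and 9.67% within Pla2g3-/-. Genes of the transport and sensing of short-chain fatty acids had wide ratios in both directions. Slc26a3, the chloride and bicarbonate exchanger of surface colonocytes, had levels of 9.94 and 10.2 with vehicle and 0.139 and 26.8 after AOM. Slc5a8, a sodium-coupled transporter of butyrate, read 1.93 and 1.86 with vehicle and 0.0624 and 2.46 after AOM. Ffar2, a receptor for short-chain fatty acids, was low in both AOM pools, at 0.0899 and 0.120 against 2.15 and 2.10 with vehicle. Hcar2, a receptor for butyrate and 3-hydroxybutyrate, went the other way, at 0.0304 and 0.0519 with vehicle and 0.552 and 0.0624 after AOM.

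Genes of other lists had wide ratios too. Fabp2, the intestinal fatty acid binding protein, read 132 and 155 with vehicle and 0.612 and 6.09 after AOM. Acox2, a peroxisomal oxidase of branched chains, read 0.133 and 0.217 with vehicle and 0.570 and 0.0956 after AOM, higher in the Pla2g3+/+ AOM pool as Acot1 was. The thioesterase Acot12 was well above background in that pool alone, at least 4.78-fold above its vehicle pool. Angptl4, a secreted inhibitor of lipoprotein lipase and a target of PPARs, had levels of 0.965 and 1.29 with vehicle and 1.88 and 0.310 after AOM. Slc16a7, a carrier of monocarboxylates, was 2.63-fold higher after AOM in Pla2g3-/-, as were Slc26a3 by 2.63-fold and Esrrg by 2.47-fold, while Fabp1 was at least 46.6-fold lower there.

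Markers of cell types moved with these comparisons. Beside the marker counts below, 22.4% of all genes were over 2-fold lower and 15.1% higher after AOM in Pla2g3+/+. In KO/WT after AOM, 15.1% were higher and 12.9% lower. Differentiated colonocytes, the cells that carry much of the oxidation of fatty acids in the colon, had 8 of 10 markers over 2-fold lower and none higher after AOM in Pla2g3+/+, and 9 of 10 higher and 1 lower in KO/WT after AOM. Their summed level was 718 and 749 with vehicle and 68.8 and 392.5 after AOM. Guca2a, a hormone precursor of surface cells, read 293 and 278 with vehicle and 4.83 and 106 after AOM, and Car1, a carbonic anhydrase, read 141 and 178 with vehicle and 15.1 and 63.4 after AOM. None of the 10 was below background on any array.

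Smooth muscle had the largest median ratio of the marker lists in both of these comparisons, -4.49 and 4.54 log2, with all 9 markers over 2-fold lower after AOM in Pla2g3+/+ and all 9 higher in KO/WT after AOM. Its summed level was 669 and 706 with vehicle and 42.4 and 649.6 after AOM. Tagln, an actin-binding protein, had AOM/vehicle log2 ratios of -4.07 in Pla2g3+/+ and -0.35 in Pla2g3-/-, and Myl9, a myosin light chain, read 153 and 166 with vehicle and 11.2 and 153 after AOM. Wnt targets of colon tumors did the reverse, with all 10 over 2-fold higher after AOM in Pla2g3+/+, all 10 lower in KO/WT after AOM and summed levels of 8.29 and 8.36 with vehicle and 78.7 and 8.94 after AOM. Notum, a Wnt antagonist, read 2.13 and 1.94 with vehicle and 10.3 and 1.69 after AOM, and Rnf43, which removes Wnt receptors, read 1.73 and 1.76 with vehicle and 13.7 and 3.16 after AOM. Epithelial markers as a whole moved less, with summed levels of 887 and 888 with vehicle and 492.5 and 757 after AOM, 4 of 10 over 2-fold lower within Pla2g3+/+. The members' sum was 2.27-fold lower in the Pla2g3+/+ AOM pool than in its vehicle pool, against 1.80-fold for epithelium, 10.4-fold for colonocytes and 15.8-fold for smooth muscle. The part of these cell types in the members' ratios was not tested.

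Other lists moved in other comparisons. Of all genes, 1.93% were over 2-fold higher and 1.32% lower in KO/WT with vehicle, and 9.67% higher and 15% lower after AOM in Pla2g3-/-. Pancreatic acinar markers were over 2-fold higher in 6 of 8 and hepatocyte markers in 4 of 6 in KO/WT with vehicle, where no member passed 2-fold. Their summed levels were 32.1 and 64 with vehicle and 2.44 and 6.63 after AOM for acinar cells, and 5.09 and 10 with vehicle and 4.94 and 3.99 after AOM for hepatocytes. Nearly all of the acinar sum in Pla2g3+/+ with vehicle was Cela1 (16.5) and Clps (15.3). Both were lower in Pla2g3-/- with vehicle, at 13.1 and 10.1. Amy2a5 read 34.6 there and was not well above background in Pla2g3+/+. Adipocyte markers, whose cells also oxidize fatty acids, had 5 of 6 over 2-fold lower after AOM in Pla2g3+/+ and 6 of 6 in Pla2g3-/-, with summed levels of 16.8 and 35.9 with vehicle and 2.195 and 5.23 after AOM. Leukocyte markers had 1 of 8 higher and 6 lower in KO/WT after AOM, and proliferation markers none higher and 2 of 9 lower. Skeletal and heart muscle markers summed to at most 3.21 on any array, and small intestinal enterocyte markers to 134 and 156 with vehicle and 1.17 and 9.45 after AOM. Nearly all of the 2 vehicle sums was Fabp2, at 132 and 155, and Apoa4 was not well above background on any array. After AOM in Pla2g3-/-, 3 of the 6 enterocyte markers with a ratio were over 2-fold higher and 3 lower.

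**Figure D4:**
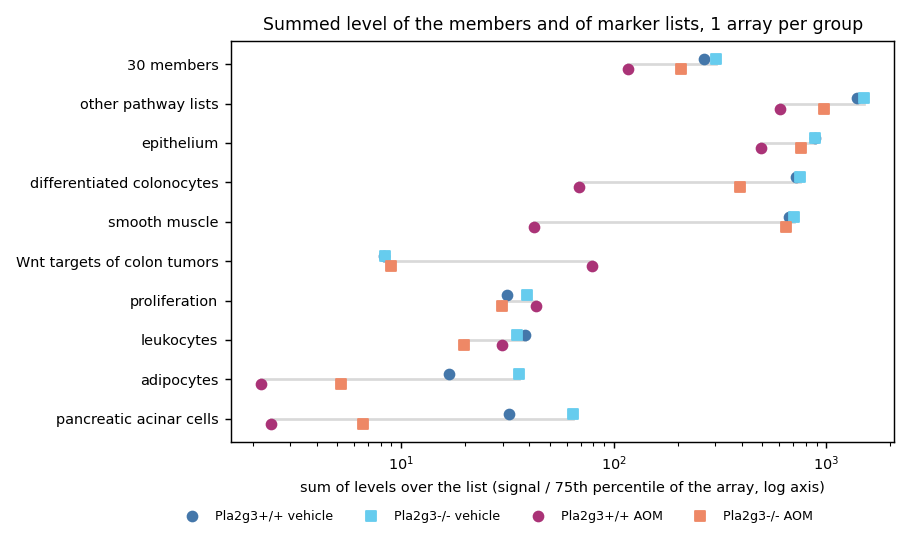
Summed level of each list, the signals divided by the 75th percentile of the array and added over the list, on a log axis, with Pla2g3+/+ as circles and Pla2g3-/- as squares. The members read 264.6, 304, 117 and 207 in the order Pla2g3+/+ and Pla2g3-/- with vehicle, then with AOM, and the Pla2g3+/+ AOM pool lies lowest for smooth muscle (42.4) and colonocytes (68.8) and highest for Wnt targets (78.7).

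Promoters were read because PPARA with its partner RXR, and the estrogen-related receptors, bind elements built on the hexamer AGGTCA. RefSeq windows on GRCm38.p6, from 250 bases before to 50 after the start, were matched for 26 of the 30 members. The hexamer stood on either strand in 4 of the 26 genes (15.4%), against 18.1% of 27025 genes. A direct repeat of the hexamer on one strand with 1 base between, TCAAGGTCA for estrogen-related receptors and CAAAGTCCA for HNF4 were in 0 of the 26, against 0.0481%, 0.466% and 0.555% of all genes. At shares this small, 26 genes were too few to set these 0 counts apart from all genes. The estrogen-related element contains the hexamer. The 4 members with the hexamer are shown with it in capitals, on the strand of the gene, where TGACCT is the hexamer on the opposite strand. The stretches are chr2:6213145-6213210 (minus strand) for Echdc3, chr3:153944857-153944893 (minus strand) for Acadm, chr11:70015480-70015545 (minus strand) for Acadvl and chr19:3323177-3323242 (plus strand) for Cpt1a, all upstream of the start.
Echdc3: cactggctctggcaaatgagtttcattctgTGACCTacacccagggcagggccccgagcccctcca
Acadm: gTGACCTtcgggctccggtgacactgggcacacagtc
Acadvl: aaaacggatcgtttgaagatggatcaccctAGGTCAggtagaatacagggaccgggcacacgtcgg
Cpt1a: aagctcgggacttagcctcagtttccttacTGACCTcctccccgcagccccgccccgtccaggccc

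Of these 4 genes, Echdc3 and Acadm were over 2-fold lower after AOM in Pla2g3+/+ and over 2-fold higher in KO/WT after AOM, Cpt1a passed 2-fold in KO/WT after AOM alone, and Acadvl passed it in no comparison. A match of letters is no binding site, and these windows hold only the bases next to the start.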

How the data were processed

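Groups were taken from the sample labels, 4 one-color arrays with 1 pool each. The deposited spot intensity came from Agilent Feature Extraction 11.5.1.1 and, per the file headers, had been corrected for background and for spatial trend within the array. The deposited value table is a ratio of that intensity to the array's 75th percentile. Of 43020 spots, controls and outliers were left out, repeat spots were averaged on the log2 scale to 39429 probes, and the log2 of the array's 75th percentile was subtracted. RefSeq (GRCm38.p6) named 31372 probes, and the others were left out of the gene values. The brightest probe stood for a gene. Where only 1 array of a comparison was well above background, the ratio was a bound, and where neither was, none was given.

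Ratios are differences of log2 levels, with 2-fold as threshold. Treatment and genotype were fitted with limma 3.58.1 (R 4.3.3) and Benjamini-Hochberg adjustment, and the script was tested on simulated data. Other values used Python 3.11.15, pandas 2.3.3 and numpy 2.4.6. Members, lists and the rule for named genes were chosen with earlier results of these data known. The rule took all members, the 3 largest rises and falls of the other pathway lists in each comparison, the 2 brightest genes of a marker list (given for colonocytes, smooth muscle and Wnt targets) and Pla2g3. Some genes that the rule or the lists hold are not reported here. As alternatives, levels were normalized by quantiles, left unscaled, scaled by the median, or background-corrected with normexp (offset of 50) before quantile normalization. Ratios were also taken from the mean over probes, from genes detected on both arrays, without a filter, from the deposited value table, and at 1.5-fold and 4-fold, and limma was run with an intensity trend.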

Additional observations from a re-analysis of the deposited data

Results flagged for a closer look

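Several members had log2 ratios of opposite sign in the 2 genotypes or the 2 treatments, differing by over 1 log2 unit. With 1 array per group these differences were not tested. The share of all genes meeting the same rule was not counted, so the numbers of members below have no background.

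AOM/vehicle was below 0 in Pla2g3+/+ and above 0 in Pla2g3-/- for 6 members. The ratio in Pla2g3-/- exceeded that in Pla2g3+/+ by 2.37 for Ehhadh, 2.27 for Ppargc1a, 1.91 for Acadm, 1.75 for Bdh1, 1.59 for Cpt1a and 1.18 for Acat1. Acot1 was the reverse, 0.58 in Pla2g3+/+ and -1.27 in Pla2g3-/-, a difference of -1.85.

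KO/WT was below 0 with vehicle and above 0 after AOM for 6 members, by 2.91 for Ppara, 2.37 for Ehhadh, 2.27 for Ppargc1a, 1.91 for Acadm, 1.89 for Slc25a20 and 1.59 for Cpt1a. Acot1 was again the reverse, at -1.85. Both kinds of difference rest on the same 4 arrays, so their sizes are equal for a gene present in both, and only the signs of the parts differ. No member passed 2-fold in opposite directions.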

How the results depend on the processing

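KO/WT with vehicle had no member past 2-fold under any setting run, and none past 1.5-fold with the scaling used here. In KO/WT after AOM the median was 0.62 without scaling and 0.70 after normexp and quantile normalization. The 1.5-fold threshold gave 20 members higher, and the 4-fold threshold 5 higher and 0 lower. Within Pla2g3+/+ after AOM, 11 members were lower with quantile normalization (median -0.87), where 17.7% of all genes were. With normexp 11 were lower (-0.83), against 9.68% of all genes. Without scaling 5 were lower (-0.11), against 7.17%, and 2 higher, against 45.1%. At 4-fold 5 were lower. Without scaling Acaa1a turned from -1.01 to 0.004814 there. Within Pla2g3-/- after AOM, 2 members were higher with quantile normalization (median -0.11) and with normexp (-0.11), against 11% and 5.38% of all genes. Without scaling 4 were higher and 0 lower, against 38.1% and 3.7% of all genes, with the members' median reversed to 0.38. The 1.5-fold threshold gave 3 higher and 13 lower, and the 4-fold threshold 0 in both directions. Shares of all genes past 1.5-fold and 4-fold were not counted, so the members' counts there have no background. The other counts of members past 2-fold stayed within 1.5 times, and the other medians moved by less than 0.0797 to 0.0824 log2, the spread that repeat spots give a ratio. The number of members lowest in the Pla2g3+/+ AOM pool, examined under other scalings after seeing the data, was 15 without scaling and 25 to 27 otherwise. limma called 0 genes under each setting, with 2093 to 3161 genes for treatment and 84 to 348 for genotype at an unadjusted p under 0.05. Without scaling, the brighter AOM arrays move all genes up. No paired analysis was possible because each group is 1 pooled array, which also leaves no replicate to leave out. All members were well above background on all arrays, so dimness limits only the weak probes.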

Other observations

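The additive fit pooled both genotypes for the effect of AOM. Its estimate was -2.21 ± 0.40 log2 (SE) for Acads, -2.18 ± 0.64 for Slc25a20, -1.56 ± 0.32 for Etfb and -1.31 ± 0.31 for Eci1, each with an adjusted p of 0.368 in limma. For Ppara, Echdc3 and Acsm3, whose ratios differed between the genotypes, the fit placed that difference in its residual.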
